A study of Rattus norvegicus with 20 samples.

Results

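The arcuate nuclei of female rats with infantile spasms that had received PMX53 (BYP) were compared with those of female rats with infantile spasms that had received ACTH (BYA). The groups were taken from the condition letters in the sample titles, and each group held 4 of the 20 samples of the series, so that 8 samples were compared. All rats were Sprague-Dawley and were profiled on postnatal day 15. The mothers of both groups had been injected with betamethasone at 0.4 mg/kg on gestational day 15, and spasms were triggered in the pups with N-methyl-D-aspartic acid (NMDA) on postnatal days 12, 13 and 15. The labels place both treatments on days 13 to 15, whereas the study's methods start both on the day of the first spasms. By the study's methods ACTH was injected more often each day than PMX53, so the comparison also holds that difference in handling. The other 12 samples entered the fit to estimate the spread between rats. They were 4 rats with saline before birth and no spasms (SNS), 4 with betamethasone and no spasms (BNS), and 4 with betamethasone, spasms and saline treatment (BYS). The BYS samples also gave reference levels, as did the BNS samples for a few genes. The rats were pups of purchased time-pregnant females, and the labels do not tie a sample to a litter.

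ACTH is the pituitary hormone that drives the adrenal cortex to release glucocorticoids, and it is a first-line treatment of infantile spasms. It is also cut from the same precursor as the melanocortin peptides, pro-opiomelanocortin, which neurons of the arcuate nucleus make and to whose receptors ACTH can bind. PMX53 is a cyclic peptide that blocks C5ar1, the receptor for the complement fragment C5a, through which complement activation draws in and activates inflammatory cells. Glucocorticoids restrain the transcription factor NF-kB and the cytokines that it drives, so that both treatments bear on inflammatory genes by different routes.

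Levels are log2 values of normalised fluorescence, and a difference is BYP minus BYA on that scale, so that 1 is a doubling. Each Cy3 or Cy5 channel was 1 sample, and each group had 2 samples in each dye. BYP1 with BYP2, BYP3 with BYP4 and BYA1 with BYA2 shared an array. The 4 BYP samples lay on 1 slide, BYA1, BYA2 and BYA4 on another, and BYA3 on one that held no other of the 8 samples, so slide and treatment cannot be told apart. The channel of BYA3 is not certain, because its dye label says Cy3 while the deposited description of its scan lists it after another rat, where the Cy5 sample of an array is listed elsewhere. BYA3 lay as near to the BYP samples (mean absolute difference of 0.262 per gene) as to the other BYA samples (0.264), and the counts of called genes and of the main gene lists are also given without it. Sry was the Y-linked gene measured and stood at 7.75 to 8.03 in all 8 samples, BYA3 having 8.03, and was well above background in 1 BYA and 2 BYP samples. No probe was matched to Xist, so the sex of the rat in the BYA3 channel was not tested. The share of spots well above background ran from 55.1% to 71.2% in BYA and from 61.6% to 75.2% in BYP, and the ratio of median signal to median background from 6.56 to 10.5 and from 7.07 to 10.9.

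Of 28 arcuate markers 25 were measured, while Lepr, Otp and Esr1 did not pass the filter on dim probes. Levels are given here for abundant peptides only and were not set against neighbouring regions, so the dissection was not tested. The orexigenic and anorexigenic peptides Agrp, Npy, Pomc and Cartpt had mean levels of 14.92, 14.76, 14.40 and 13.50 in BYA and of 14.63, 14.70, 14.38 and 13.41 in BYP, all among the bright genes of the array.

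Few genes were called between the treatments in the main fit. Of 17086 genes, 27 (0.158%) were called at an adjusted p under 0.05, 6 higher in BYP (0.0351%) and 21 lower (0.123%). The leading gene that was higher after PMX53 was Cxcl16, a chemokine that is also a membrane-bound scavenger receptor, and the gene lower by the largest difference was Pdcd10, a scaffold protein of the cerebral cavernous malformation complex. Lin7b, a scaffold protein of synaptic and epithelial junctions, was another bright gene that was lower. The tissue is a mixture of cells, and fewer cells of a type cannot be told apart from less RNA per cell. The call did not survive when the channels of an array were modelled as correlated (0 called by limma, 1359 with an unadjusted p under 0.05), when only the 8 samples compared were fitted (0 called, 1457) or without BYA2 (0 called, 1933), and 265 genes were called without BYA3. All 27 genes kept their direction and an unadjusted p under 0.05 in those 4 fits, which share most of the compared samples. The values of BYP and BYA did not overlap in 26 of the 27, which follows largely from calling the genes on these same values and is no further support. Of all genes with 4 and 4 values, 6.05% did not overlap (2.67% higher and 3.38% lower in BYP).

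Cxcl16 had levels of 7.26, 7.61, 9.32 and 9.14 in BYA1 to BYA4 and of 9.87, 10.18, 11.09 and 11.06 in BYP1 to BYP4. Every BYP sample exceeded every BYA sample, although the 2 BYA samples of the shared array lay more than 1 unit below the other BYA samples. The difference was 2.22 (SE 0.387), or 4.65-fold, with an adjusted p of 0.0372 by limma. The gene was well above background in 2 of the 4 BYA samples only, so that the fold rests partly on signal near background. The difference was 2.19 among the Cy3 samples and 2.24 among the Cy5 samples, and 2.60 without BYA3 (adjusted p = 0.0024). Its single probe lies on the minus strand of rn4 at chr10:57296159-57296218 and had a missing value among the BYS rats.

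Upp1, the uridine phosphorylase that breaks uridine down to uracil, had levels of 8.87, 8.98, 9.28 and 9.46 in BYA and of 10.05, 9.78, 10.41 and 10.09 in BYP. The difference was 0.94 (SE 0.177, adjusted p = 0.0491), and the groups did not overlap. Fzd1, a Wnt receptor, had 9.93, 9.79, 10.13 and 10.22 in BYA and 10.53, 10.58, 10.81 and 10.99 in BYP, a difference of 0.71 (SE 0.133, adjusted p = 0.0491). Cdkn2b, an inhibitor of the cyclin-dependent kinases of the G1 phase, was dim, with 7.90 to 7.97 in BYA and 8.30 to 8.50 in BYP, and the difference of 0.42 (SE 0.0824) had an adjusted p of 0.0493. It was well above background in only 2 of the BYA samples. For these 3 genes the BYS rats lay between the treatments, with means of 9.51 for Upp1, 10.55 for Fzd1 and 8.15 for Cdkn2b, and neither treatment differed from BYS at an adjusted p under 0.05.

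The other 2 genes called higher are named by their probe only, A_64_P143316 and A_64_P130249. A_64_P143316 was the gene with the smallest adjusted p (0.0107): its levels were 9.88, 9.68, 9.81 and 9.87 in BYA and 10.45, 10.50, 10.67 and 10.59 in BYP, a difference of 0.74 (SE 0.0997). A_64_P130249 had 10.62, 10.45, 10.52 and 10.75 in BYA and 11.10, 11.40, 11.33 and 11.44 in BYP, a difference of 0.73 (SE 0.113, adjusted p = 0.0237). For both, BYA lay within 0.10 of BYS while BYP stood above it, by 0.84 (adjusted p = 0.00186) and 0.81 (adjusted p = 0.0062). The probe sequences are printed because they are what identifies these transcripts, beside the probes of Upp1 and Lin7b as examples of a named gene called in each direction. They are written 5′ to 3′ as on the array. Their positions are chr3:86417659-86417718 (plus), chr1:172181399-172181458 (minus), chr14:89669457-89669516 (plus) and chr1:95840035-95840094 (minus) in rn4. Exon, intron and UTR annotations of that build were not used here.
A_64_P143316: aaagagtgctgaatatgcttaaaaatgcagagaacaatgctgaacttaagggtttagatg
A_64_P130249: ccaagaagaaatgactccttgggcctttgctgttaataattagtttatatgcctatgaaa
Upp1: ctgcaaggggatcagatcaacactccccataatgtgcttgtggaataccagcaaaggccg
Lin7b: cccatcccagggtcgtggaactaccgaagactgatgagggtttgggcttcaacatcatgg

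**Figure D1:**
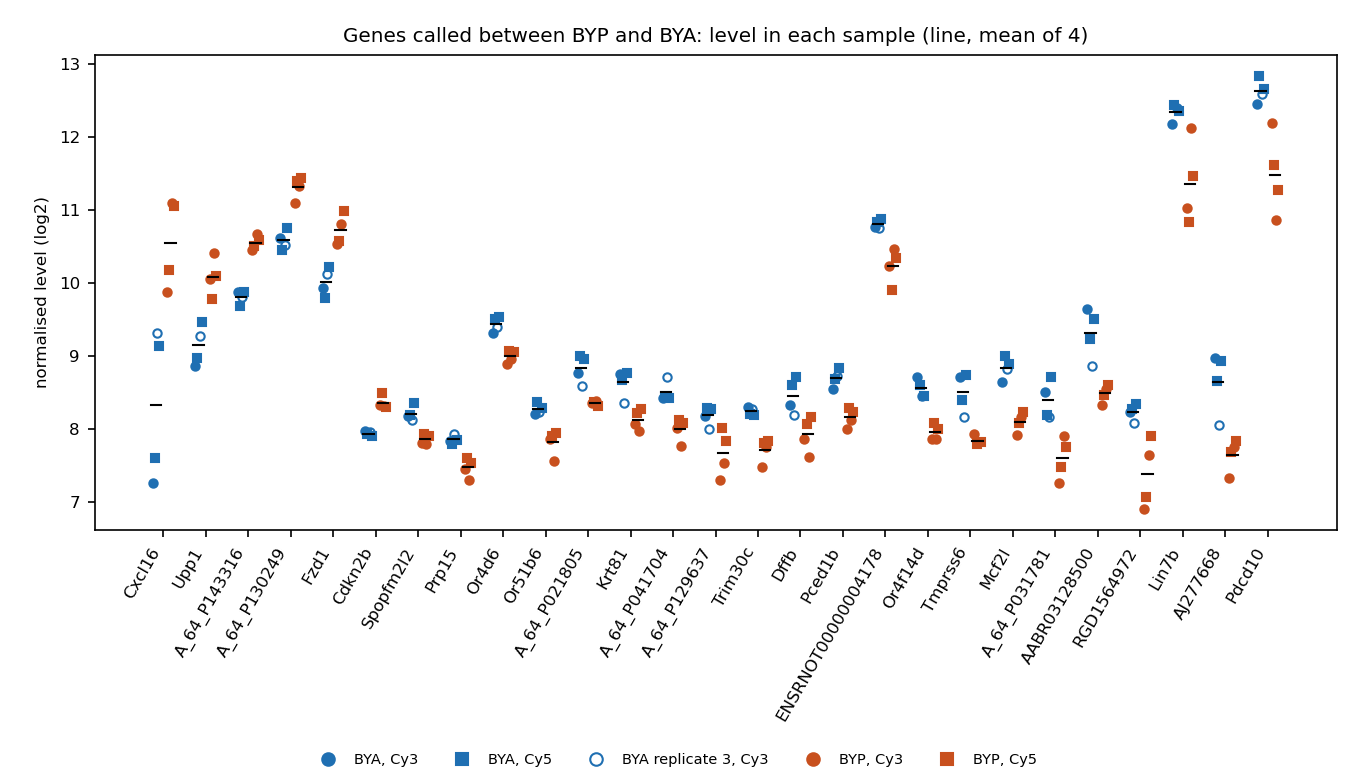
Normalised log2 level (vertical axis) of the 27 genes called between BYP and BYA (horizontal axis, ordered by difference) in each of the 4 BYA (blue) and 4 BYP (orange) samples; circles are Cy3 and squares Cy5 samples, the open circle is BYA replicate 3, and lines are group means. The groups do not overlap in 26 of the 27 genes, and 16 of the 21 genes lower in BYP have a BYA mean under 9.

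Pdcd10 was bright in all BYA rats, at 12.45, 12.83, 12.59 and 12.66, and stood at 12.19, 11.61, 10.86 and 11.27 in BYP. The BYP samples were lower than every BYA sample and more scattered (SD 0.56 against 0.16, n = 4 each). The difference was -1.15 (SE 0.194, adjusted p = 0.0358). Lin7b had 12.17, 12.43, 12.40 and 12.35 in BYA and 11.02, 10.84, 12.12 and 11.47 in BYP, so that BYP3 lay next to the BYA range, and the difference was -0.98 (SE 0.189, adjusted p = 0.0493). Means in BYS were 12.49 for Pdcd10 and 12.12 for Lin7b, closer to BYA than to BYP, but BYP and BYS did not differ at an adjusted p under 0.05 (0.0965 and 0.241). Another bright gene, known here by the transcript identifier ENSRNOT00000004178 and placed on chromosome X, had 10.75 to 10.88 in BYA and 9.91 to 10.47 in BYP, a difference of -0.58 (SE 0.112, adjusted p = 0.0493).

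Mcf2l, a guanine nucleotide exchange factor, had 8.65, 9.0, 8.82 and 8.89 in BYA and 7.92, 8.09, 8.17 and 8.23 in BYP, a difference of -0.74 (SE 0.115, adjusted p = 0.0237). It also was lower in BYP than in BYS, by -0.75 (adjusted p = 0.0139), while BYA and BYS differed by -0.01. Its value is the mean of 3 probes that did not move alike, with differences of -1.43, -0.91 and 0.13. AJ277668, which the array annotates as a T cell receptor alpha chain, had 8.97, 8.66, 8.05 and 8.93 in BYA and 7.33 to 7.84 in BYP, a difference of -1.0 (SE 0.18, adjusted p = 0.0382).

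Most genes that were lower in BYP were dim. Of the 21, 16 had a mean BYA level under 9, Mcf2l and AJ277668 among them. They included Tmprss6 (-0.66), a serine protease that restrains hepcidin expression, Dffb (-0.54), the nuclease that cuts chromatin during apoptosis, Krt81 (-0.51), a hair keratin, Trim30c (-0.53) and the odorant receptor genes Or4f14d (-0.60) and Or51b6 (-0.46). Another odorant receptor, Or4d6, was lower as well (-0.45) at 9.32 to 9.54 in BYA, and AABR03128500, which has no symbol, had 8.87 to 9.64 in BYA and 8.33 to 8.61 in BYP (-0.82). Prp15 (-0.38) was well above background in 1 BYA sample and in no BYP sample, so its difference rests on signal near background. The other 7 dim genes were Spopfm2l2, Pced1b, RGD1564972, A_64_P031781, A_64_P129637, A_64_P041704 and A_64_P021805, with differences from -0.85 to -0.35. None of the 16 was well above background in more samples of BYP than of BYA. That follows largely from calling them lower on the same signals and is no further support. A probe was kept when every sample of any 1 condition passed the filter. Such genes could therefore enter through BYA, the group where they were higher.

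The direction of the dim genes rested on how the channels were brought to a common scale. Quantile normalisation left the median difference of all genes at 0. When channels were instead given equal medians, the median of all genes was -0.126, and when they were given equal 75th percentiles it was 0.255. In both cases the shift depended on brightness: genes with a mean level under 9 had median differences of 0.32 and 0.71, and genes over 12 had -0.50 and -0.12. No gene was called under either scaling (limma, 3929 and 3183 genes with an unadjusted p under 0.05). The 6 genes called higher kept their sign under both, as did Pdcd10, Lin7b, ENSRNOT00000004178, AABR03128500, AJ277668 and Or4d6. The other 15 were above 0 with the 75th percentile, and 5 of them also with the median. Relative to the median of all genes, 19 of the 27 kept their direction under each scaling.

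**Figure D2:**
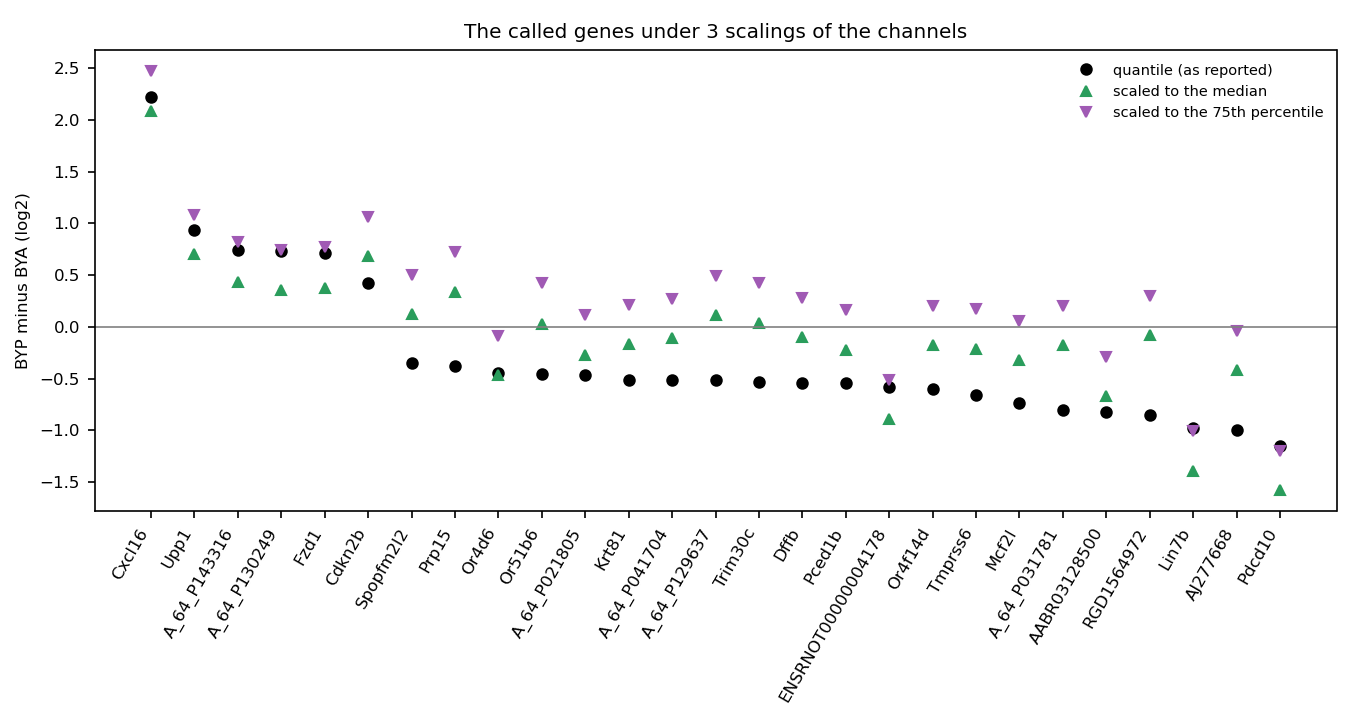
Difference between BYP and BYA in log2 units (vertical axis) for the 27 called genes (horizontal axis) with quantile normalisation (black circles), with equal channel medians (green) and with equal 75th percentiles (purple). The 6 genes called higher, Pdcd10 and Lin7b stay on their side of 0, and 15 of the genes called lower cross it with the 75th percentile.

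Without BYA3, 265 genes (1.55%) were called, 175 higher in BYP (1.02%) and 90 lower (0.527%). The 27 genes called with all samples were among them, and all 265 had the same sign with BYA3 included. In 100 of the 265 the BYA3 value lay inside the range of the 4 BYP values, in 85 of the 175 genes higher and in 15 of the 90 lower, and in 186 it lay closer to the mean of BYP than to that of the other BYA samples. Several of the large differences that were called only without BYA3 came from low values in BYA1 and BYA2, which shared an array. Of the 175 genes higher, 11 had both of these samples more than 1 log2 unit below BYA4. RGD1559743 had 9.53 and 9.87 in BYA1 and BYA2, 13.39 in BYA3 and 12.06 in BYA4, against 13.25 to 13.59 in BYP and 13.20 to 13.51 in BYS. Mrpl49, a protein of the mitochondrial ribosome, had 7.44 and 8.73, then 11.46 and 11.08, against 11.34 to 11.54 in BYP. Ifi44, an interferon-induced gene, had 5.92 and 6.77, then 9.05 and 8.89, against 8.92 to 9.44 in BYP. For these genes BYP, BYS, BYA3 and, less closely, BYA4 lay together and the 2 channels of 1 array stood below them. The part of that array in the result was not tested.

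Genes that BYA1, BYA2 and BYA4 shared at a low level were Metrnl, a secreted meteorin-like factor, and Mgat2, an enzyme of N-glycan synthesis. Metrnl had 7.26, 8.06 and 7.83 in these samples, 9.54 in BYA3 and 9.51 to 9.89 in BYP (2.81-fold with BYA3 included, adjusted p = 0.0585). Without BYA3 its difference was 1.98 and its adjusted p by limma was 2.39e-05. Mgat2 had 6.82, 6.80 and 7.24, then 8.68 in BYA3 and 8.50 to 9.22 in BYP. The BYS means, 9.54 and 9.15, were like those of BYP. Again BYA3 lay with BYP, and the other 3 BYA samples are those of 1 slide.

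**Figure D3:**
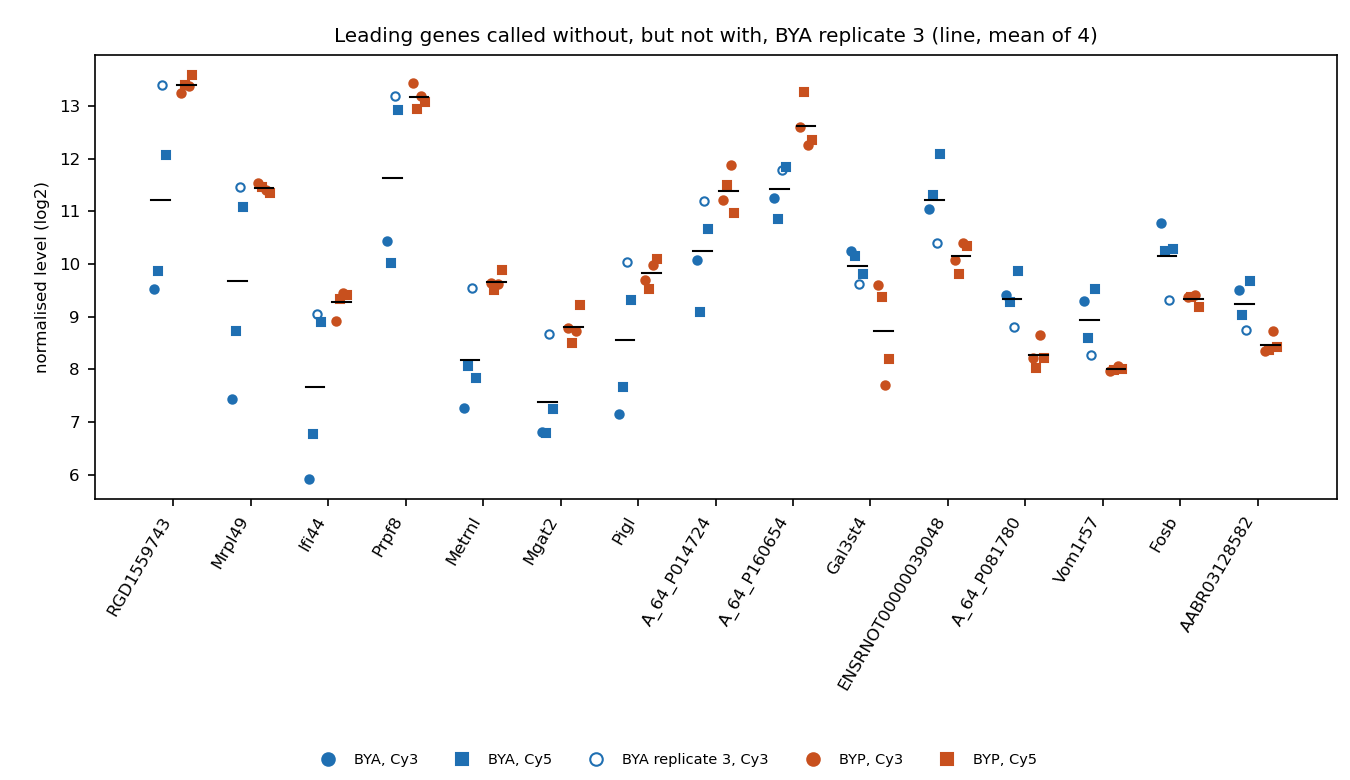
Normalised log2 level (vertical axis) of the leading genes called without BYA replicate 3 but not with it (horizontal axis), in each BYA (blue) and BYP (orange) sample; circles are Cy3 and squares Cy5 samples, the open circle is BYA replicate 3, and lines are means of 4. For RGD1559743, Mrpl49, Ifi44 and Prpf8, BYA replicate 3 (13.39 for RGD1559743) lies within the BYP range and apart from BYA1 and BYA2 (9.53 and 9.87).

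Prpf8, U2af1, Prpf31 and Slu7, all named here after their values were seen and not from a list of splicing genes, were called without BYA3. Prpf8, a core component of the spliceosome, had 10.43, 10.02 and 12.92 in BYA1, BYA2 and BYA4, 13.18 in BYA3 and 12.94 to 13.43 in BYP. U2af1, which recognises the 3′ splice site, had 11.81, 12.92, 13.46 and 13.51 in BYA and 13.52 to 14.43 in BYP. Prpf31 had 6.82, 7.21, 8.49 and 7.85 in BYA and 8.26 to 8.68 in BYP, and Slu7 had 9.61, 9.36, 9.95 and 9.48 against 9.90 to 10.32. Adjusted p-values by limma were 0.221, 0.0724, 0.141 and 0.0912 with BYA3 and 0.0455, 0.00658, 0.0063 and 0.00692 without it. Genes lower in BYP without BYA3 included Fosb, an activity-induced transcription factor, at 10.77, 10.24 and 10.28 in BYA1, BYA2 and BYA4, 9.32 in BYA3 and 9.19 to 9.42 in BYP (difference -1.11, adjusted p = 0.0368), and Gal3st4, a sulfotransferase, at 9.62 to 10.25 in the 4 BYA samples and 7.70 to 9.60 in BYP (-1.35, adjusted p = 0.0443).

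The members of 32 gene lists were then described, with the same fit. In all genes, an unadjusted p under 0.05 was reached by 6.91% in the direction of a higher and by 6.72% in the direction of a lower level in BYP (8.73% and 6.84% without BYA3, 7.63% and 15.4% with median scaling). Apart from the 3 odorant receptors, which belong to the list of chemosensory receptors, no listed gene was among the 27 called.

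Cytokines, their receptors and the NF-kB pathway lay above 0 on the whole. Of 25 measured members, 21 had a positive difference, 8 were higher and 0 lower at an unadjusted p under 0.05 (5 and 0 without BYA3), and the median was 0.27 against 0 for all genes. Cxcl10, a chemokine induced by interferon, had 8.26, 8.27, 7.41 and 8.09 in BYA and 8.85, 9.99, 11.11 and 8.60 in BYP, a difference of 1.63 (SE 0.404, adjusted p = 0.0947). Icam1, the adhesion molecule through which leukocytes cross vessels, had 9.86, 9.29, 8.54 and 8.84 against 10.41, 10.59, 11.76 and 10.01, a difference of 1.56 (SE 0.46, adjusted p = 0.155). The groups did not overlap for either gene, and BYP3 was the highest sample of both.

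Tnfrsf1a and Tnfrsf1b, the receptors of tumour necrosis factor, differed by 0.98 and 0.43, and Tnfrsf1b was the member called without BYA3 (adjusted p = 0.0195, 0.0724 with it). The chemokine Ccl4 had a difference of 1.11 with overlapping groups (8.30 to 10.25 in BYA, 9.68 to 10.82 in BYP), and the receptor Tlr2 one of 0.82. Tnf, Il1b and Ccl2 had differences of 0.72, 0.12 and 0.61 with unadjusted p-values by limma of 0.126, 0.664 and 0.478, and Rela had -0.86 (0.179). The median of the list was 0.20 without BYA3, 0.35 with median scaling and 0.73 with the 75th percentile, and it lay above that of all genes by 0.47 in both scalings. Under the same scalings all genes with a mean level under 9 had medians of 0.32 and 0.71, close to those of the list. The part of brightness in the list's values under these scalings was not tested. Against the BYS rats, Cxcl10 and Icam1 were 1.36 and 1.25 above BYS in BYP and -0.27 and -0.31 from BYS in BYA. These comparisons share the BYS samples, and none reached an adjusted p under 0.05. BYS itself was scattered, with Icam1 from 8.22 to 10.68.

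Complement genes, the pathway in which PMX53 acts, lay nearer to 0. Of 26 measured members 15 had a positive difference, 5 were higher and 1 lower at an unadjusted p under 0.05 (4 and 1 without BYA3), and the median was 0.13. C3, the central component whose cleavage drives the cascade, had 8.13, 8.26, 8.37 and 9.66 in BYA and 8.89, 9.04, 9.63 and 9.81 in BYP, so that BYA4 stood among the BYP samples, and its difference was 0.74 (SE 0.267, adjusted p = 0.237). C1s, a protease of the classical pathway, differed by 0.65 (9.26 to 9.92 against 9.78 to 10.47), C1qa by 0.30 with no overlap (12.12 to 12.31 against 12.41 to 12.66), and Cfi, a protease that inactivates C3b, by -0.35. With median scaling the difference of C1qa was -0.15 and that of Cfi 0.12. Itgam, a chain of complement receptor 3 on microglia, had 8.10, 8.10, 9.11 and 7.56 in BYA and 8.51 to 9.29 in BYP, and was called without BYA3 (0.98, adjusted p = 0.0373) and not with it (0.68, adjusted p = 0.259).

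The drug's own target, C5ar1, was at the level of the background: it was well above background in 0 of the BYA and 2 of the BYP samples, with levels of 7.39 to 7.99 and 7.74 to 8.00. The difference of 0.16 had an adjusted p of 0.632. C3ar1, C5ar2 and C5 did not pass the filter on dim probes. Of the microglial markers, 18 of 18 were measured, 3 higher and 1 lower at an unadjusted p under 0.05 (2 and 0 without BYA3) with a median of 0.02. Cd14, a coreceptor for bacterial lipopolysaccharide, had 8.17 to 8.98 in BYA and 9.14 to 10.08 in BYP (1.05, adjusted p = 0.276), while Cx3cr1, the fractalkine receptor that marks resting microglia, had 11.46 to 11.96 and 10.98 to 11.61 (-0.39, adjusted p = 0.296). The summed level of the list was 41300 to 53900 in BYA and 46500 to 59100 in BYP on the linear scale, so the groups overlapped. The part of microglial content in the values of cytokine and complement genes was not tested.

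Genes known to respond to glucocorticoids lay, for the most part, higher in the rats given PMX53 than in those given ACTH. Of 27 measured, 23 had a positive difference, that is a higher level in BYP, 8 were higher and 1 lower at an unadjusted p under 0.05 (6 and 1 without BYA3), and the median was 0.29 (0.16 without BYA3, 0.22 with median scaling, 0.61 with the 75th percentile). The members with the largest differences were genes that inflammation and stress also induce. Cebpd, a transcription factor of the acute phase, had 12.98, 11.70, 10.86 and 13.02 in BYA and 13.77, 13.33, 14.72 and 12.84 in BYP (1.52, SE 0.567, adjusted p = 0.247). The difference of Cebpd was 1.01 without BYA3. Angptl4, an inhibitor of lipoprotein lipase, had 12.53, 11.84, 11.48 and 12.34 against 13.25, 13.14, 14.56 and 12.91 (1.42, SE 0.397, adjusted p = 0.13).

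The metallothioneins Mt2A and Mt1, which bind zinc and copper, had differences of 1.35 and 1.24 without overlap (11.74 to 13.17 against 13.29 to 14.13 for Mt2A, 12.54 to 13.73 against 13.87 to 14.57 for Mt1). The probes of Mt2A had differences of 1.44 and 1.25, but no gene of this list was called with or without BYA3. Lcn2, an iron-carrying acute phase protein, differed by 0.99 and Tgm2, a transglutaminase, by 0.72 (adjusted p = 0.168 and 0.0931). In BYS the values of Angptl4 ran from 11.53 to 13.52 and those of Mt2A from 11.38 to 13.55, so that the untreated rats spanned both groups.

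The same list holds genes that are often used as readouts of the glucocorticoid receptor. Fkbp5, a cochaperone of the receptor, had 12.30, 12.49, 10.96 and 12.23 in BYA and 12.04 to 12.57 in BYP, so that BYA3 alone lay low, and the difference was 0.29 (adjusted p = 0.639). Without BYA3 the difference of Fkbp5 was -0.04. Sgk1 differed by 0.21 (adjusted p = 0.599), Per1 by 0.14, Zbtb16 by 0.30 and Klf9 by 0.20, with unadjusted p-values by limma of 0.29, 0.112 and 0.232 for the last 3. Tsc22d3, which encodes the leucine zipper protein GILZ, had 13.12, 12.90, 12.35 and 12.48 in BYA, 12.90 and 12.89 in BYP1 and BYP2 and 10.51 and 10.36 in BYP3 and BYP4. The -1.05 of Tsc22d3 (adjusted p = 0.339) thus came from the 2 channels of 1 array. The receptor genes Nr3c1 and Nr3c2 differed by 0.00 and -0.74 (adjusted p = 0.998 and 0.231).

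**Figure D4:**
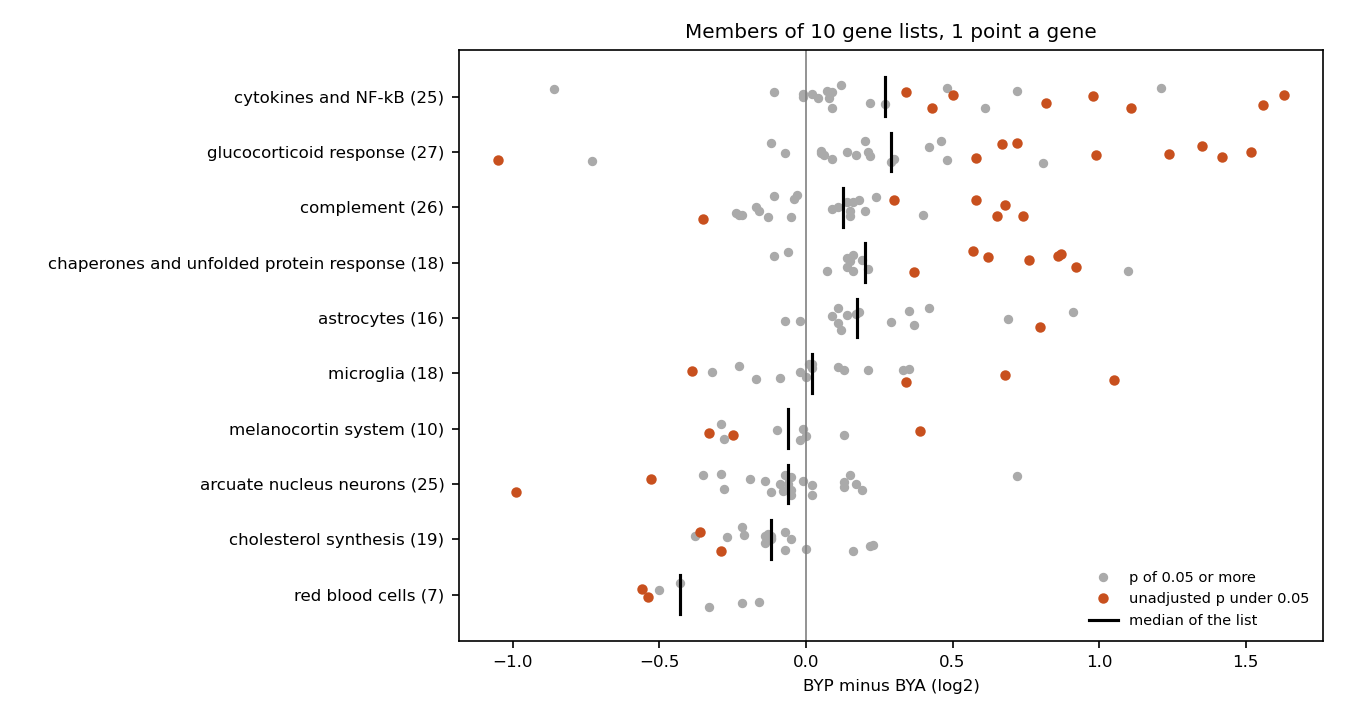
Difference between BYP and BYA in log2 units (horizontal axis) for the measured members of 10 gene lists (vertical axis, number of members in brackets), 1 point a gene; orange points have an unadjusted p under 0.05 and vertical lines are list medians. The cytokine and glucocorticoid lists have medians of 0.27 and 0.29, the red blood cell list -0.43, and the melanocortin and arcuate lists -0.06.

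Chaperones and genes of the unfolded protein response had 16 of 18 members above 0, 7 higher and 0 lower at an unadjusted p under 0.05 (5 and 0 without BYA3) and a median of 0.20 (0.19 without BYA3). This side of 0 rested on the scaling: relative to the median of all genes the list's median was -0.07 both with median scaling and with the 75th percentile, and with median scaling 1 member was higher and 1 lower at an unadjusted p under 0.05. Creld2, a protein of the endoplasmic reticulum induced by unfolded proteins, had 9.73, 10.08, 9.77 and 9.32 in BYA and 10.47, 11.10, 10.61 and 10.16 in BYP, a difference of 0.86 (SE 0.187, adjusted p = 0.0639, and 0.0437 without BYA3). Hspa5, the chaperone BiP of the same compartment, had 14.72, 14.65, 13.13 and 14.60 against 14.81, 15.62, 15.06 and 14.64. Its difference of 0.76 was 0.37 without BYA3, the one low sample. Sdf2l1 and Pdia4 differed by 0.62 and 0.57, and the heat shock genes Hspb1 and Hspa1b by 0.92 and 0.87. For Creld2, Sdf2l1 and Pdia4, BYP2 was the highest sample.

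Promoters of this list were searched because most of its members lay on the same side of 0 with quantile normalisation. The endoplasmic reticulum stress response element (ERSE), searched on either strand as CCAAT and CCACG with any 9 bases between, is the site through which ATF6 and NF-Y act on such genes. The window ran from 250 bases before to 50 bases after the annotated start in the RefSeq table (GRCr8), and promoters on chromosome 18 were left out. The element was found for 5 of the 14 members with a promoter searched, namely Calr, Creld2, Hsp90b1, Hspa5 and Xbp1, and in 22 of 32589 promoters searched (0.0675%). Members were counted as genes with a match in any of their promoters, so the 2 shares are not in the same unit. As the list was made of genes of this response, the share with an ERSE describes the list and not a difference between BYP and BYA. Of these 5 genes, Creld2 and Hspa5 had an unadjusted p under 0.05, and Calr, Xbp1 and Hsp90b1 had differences of 0.14, 0.15 and 0.07. An NF-kB consensus site was found for 7 of 20 genes of the cytokine list, among them Cxcl10, and in 5.02% of all promoters. A palindromic glucocorticoid response element, AGAACA and TGTTCT with any 3 bases between, was found for 0 of 21 genes of the glucocorticoid list and in 0.0153% of all promoters. These shares also set genes beside single promoters. These windows show the match in capitals with 20 bases on each side, at chr7:121789219-121789277, chr3:38452953-38453011 and chr14:15988918-15988967, all on the plus strand.
Creld2, ERSE on the opposite strand: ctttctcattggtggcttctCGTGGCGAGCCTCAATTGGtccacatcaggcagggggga
Hspa5, ERSE: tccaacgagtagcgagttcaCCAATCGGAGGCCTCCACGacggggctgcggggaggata
Cxcl10, NF-kB site: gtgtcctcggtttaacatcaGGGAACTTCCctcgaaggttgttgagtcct

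The melanocortin system, through which ACTH itself can act in the arcuate nucleus, showed no called gene. Pomc, the precursor, had 14.60, 14.63, 13.94 and 14.42 in BYA and 14.23, 13.98, 15.30 and 14.01 in BYP (difference -0.01, adjusted p = 0.987), and Agrp, the antagonist of its receptors, had 14.92, 14.98, 14.95 and 14.84 against 14.35, 14.51, 15.92 and 13.76 (-0.29, adjusted p = 0.799). The BYP values of both genes were more scattered, and BYP3 was the highest sample in each. Differences were 0.13 for Mc3r and 0.00 for Mc4r, the receptors of the brain, 0.39 for Mrap2, an accessory protein of these receptors (adjusted p = 0.355), -0.28 and -0.33 for the convertases Pcsk1 and Pcsk2, and -0.02 for Cpe, which trims the peptides. Mc2r (the ACTH receptor of the adrenal), Mc5r and Asip did not pass the filter on dim probes, and no probe was matched to Mc1r. The median of the 10 members was -0.06, and -0.53 with median scaling, under which bright genes shifted as given above.

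Among the other arcuate markers, Slc18a2, which loads monoamines into vesicles, had 11.88, 11.76, 12.31 and 11.93 in BYA and 10.86, 11.43, 10.16 and 11.47 in BYP, with no overlap and a difference of -0.99 (SE 0.281, adjusted p = 0.136). Th, which makes dopamine in part of the same neurons, differed by 0.17. Pdyn had a difference of 0.72 (unadjusted p = 0.0527 by limma). Lists of the GABA, glutamate, acetylcholine, and dopamine and serotonin synapses and of vesicle release had medians between -0.06 and 0.04 and no called member with or without BYA3. They held 33, 39, 12, 18 and 27 measured members in that order. At an unadjusted p under 0.05, 5 of their members were higher and 7 lower (5 and 9 without BYA3), a member being counted in each list that holds it. With all samples both shares lay below those of all genes (6.91% and 6.72%). Among the lower members was the muscarinic receptor Chrm3 (-1.06), with 8.58 in BYP3, 11.07 to 12.53 in the other BYP samples and 11.46 to 12.54 in BYA. Another was Ache, the acetylcholinesterase (-0.61), which lacks a value in BYP2.

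Markers of other cell types stood as follows. Astrocyte genes had 14 of 16 members above 0 and a median of 0.18 (-0.08 with median scaling), with Gfap at 8.85 to 9.56 in BYA and 9.25 to 10.73 in BYP (0.80, adjusted p = 0.25). Genes of vessels and meninges had 4 members higher and 0 lower at an unadjusted p under 0.05 (also 4 and 0 without BYA3) and a median of 0.12 (-0.15 with median scaling), and Flt1, a receptor of vascular endothelial growth factor, was called without BYA3 (0.47, adjusted p = 0.0278). Red blood cell genes were all below 0: the median of the 7 members was -0.43, -0.54 without BYA3, -0.75 with median scaling and -0.37 with the 75th percentile. Hba-a1 had 16.12, 15.60, 15.43 and 15.40 in BYA and 14.98, 15.15, 15.00 and 15.18 in BYP with no overlap (-0.56, adjusted p = 0.0963, and 0.0293 without BYA3), and Hbb-b1 had 15.81 to 16.81 against 15.47 to 15.68. The summed level of the red blood cell list was 156000 to 279000 in BYA and 118000 to 145000 in BYP on the linear scale, without overlap. The probes of Hba-a1 had unlike differences of -0.22 and -0.89, and those of Hbb-b1 had -0.39 and -0.68. The globin genes are near copies of each other, and their probes may share transcripts. The part of blood in the tissue in the other differences was not tested. Pituitary, choroid plexus and ependymal lists had medians of 0.01, -0.05 and 0.02.

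**Figure D5:**
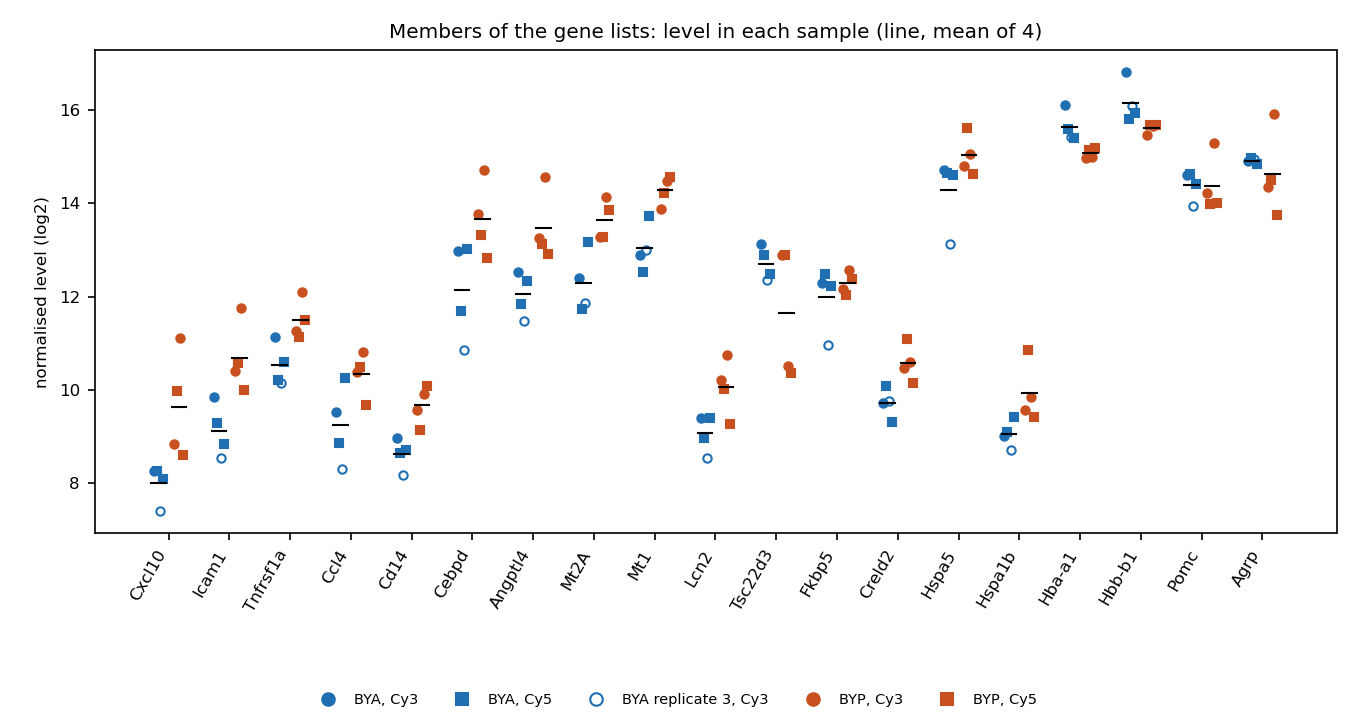
Normalised log2 level (vertical axis) of members of the gene lists (horizontal axis) in each BYA (blue) and BYP (orange) sample; circles are Cy3 and squares Cy5 samples, the open circle is BYA replicate 3, and lines are means of 4. Icam1, Mt2A and Creld2 lie higher and Hba-a1 lower in BYP without overlap, Tsc22d3 splits by array within BYP, and BYA replicate 3 is low for Fkbp5 (10.96) and Hspa5 (13.13).

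Immediate early genes had 19 of 26 members above 0, 3 higher and 1 lower at an unadjusted p under 0.05 (2 and 2 without BYA3), and a median of 0.19 that was 0.07 without BYA3 and -0.03 with median scaling. Fosl1 had 9.0, 8.59, 7.37 and 8.68 in BYA and 9.88, 9.46, 11.61 and 10.16 in BYP with no overlap (1.87, SE 0.64, adjusted p = 0.208). Its difference was 1.48 without BYA3, whereas Fosb lay lower in BYP as given above. Fos had 10.67, 10.47, 8.76 and 11.03 against 10.33 to 10.89, so that only BYA3 stood apart (0.35, adjusted p = 0.784). Without BYA3 the difference of Fos was -0.12. Means in BNS were 8.87 for Fos, 7.35 for Fosl1, 11.03 for Fkbp5 and 14.69 for Hspa5. BYA3 had 8.76, 7.37, 10.96 and 13.13 in the same order. No rule chose these genes for that comparison, and a share over all genes is not given. Which rat the BYA3 channel holds was not tested. Genes of cholesterol synthesis, by contrast, had 16 of 19 members below 0 and a median of -0.12, with Fdft1, the squalene synthase, at -0.36 (11.76 to 11.99 against 11.39 to 11.59, adjusted p = 0.203). The list's median was -0.49 with median scaling and -0.11 with the 75th percentile. All genes with a mean level over 12 had -0.50 and -0.12 under these scalings, so the kept sign does not set the list apart from bright genes.

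A pair of further genes, from the housekeeping lists, had large differences that lay in 1 array. Rps27, a ribosomal protein, had 15.81 to 16.06 in BYA, 15.74 and 15.64 in BYP3 and BYP4, and 11.27 and 13.07 in BYP1 and BYP2 (-2.04, adjusted p = 0.168). Uqcrc2, a subunit of respiratory complex III, had 13.92 to 14.22 in BYA, 14.01 and 13.90 in BYP3 and BYP4, and 11.31 and 12.42 in BYP1 and BYP2 (-1.14, adjusted p = 0.243). The lists they belong to, 96 ribosomal proteins and 95 genes of oxidative phosphorylation, had medians of -0.03 and -0.01.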

How the data were processed

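Female rat arcuate nuclei were hybridized to 11 two-colour Agilent arrays on 6 slides, and each channel used was 1 sample. The arrays of BYA3 and BYA4 also held a male sample of another series. The authors deposited scanner intensities, that is mean signals and median backgrounds without normalisation, beside processed signals that the extraction software had background-subtracted and dye-normalised. The deposited flags (0 or 1) count as scores of spot quality. Columns of another series (82) were not used. Agilent Feature Extraction is version 10.7.3.1 in the submitters' processing notes and 11.5.1.1 in the file headers.

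Here normexp (offset 50), quantile normalisation over the 20 channels and log2 were applied with limma 3.58.1 (R 4.3.3). Outlier spots (1.18%) were left out. Probes had to exceed background clearly, by the scanner software's call, in a share of 0.5 or more of their spots in every sample of some condition. The 19883 that did gave 17086 genes, of which 787 had a missing value. A gene's level was the mean of its kept probes without a missing value. Where all had one, the kept probe with the fewest missing values was used alone. Accessions matched RefSeq symbols (GRCr8) for 61.4% of probes, and the others kept the file's name. Precision is limited by 4 samples a group, which cannot give a permutation p below 0.0286. P-values measure the spread between these samples.

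One limma fit of all samples with dye as covariate gave BYP minus BYA, two-sided with Benjamini-Hochberg adjustment, and was repeated without BYA3 and under the alternatives of the closing section. The fit was tested on simulated data. A group's samples were taken as separate rats. The members and gene lists were chosen with earlier results of these data known. Genes named are those called, or the 15 leading in a direction, the 10 leading in each direction without BYA3 when values did not overlap, up to 3 leading members of each list with an unadjusted p under 0.05, and fixed melanocortin, complement and receptor genes. Values are not given for all of them. Tgm2, Mt1, Lcn2, Tnfrsf1a, Tnfrsf1b, Tlr2, C1qa, Cfi, Hspa5, Pdia4, Sdf2l1 and other list members outside this rule were named after their values were seen.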

Additional observations from a re-analysis of the deposited data

Results flagged for a closer look

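In 10 of 274 groups of 4 samples (3.65%, where chance flags about 1 in 20) of the genes under the naming rule or named after their values were seen, 1 sample lay far from the other 3 by Dixon's ratio at its 95% critical value. BYA3 was that sample in 4 of them: it was the lowest BYA sample for Fkbp5 (10.96, nearest 12.23), Nfkb1 (9.68, nearest 10.05) and Hspa5 (13.13, nearest 14.60) and the highest for A_64_P041704 (8.72, nearest 8.45). BYA1 was lowest for Nr3c2 (8.54, nearest 9.11) and BYA4 highest for C3 (9.66, nearest 8.37). In BYP, BYP1 was highest for Tmprss6 (7.93, nearest 7.82) and Mal (8.11, nearest 7.83) and lowest for Hbb-b1 (15.47, nearest 15.66), and BYP2 was lowest for Rpl22l2 (12.03, nearest 13.34).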

How the results depend on the processing

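The 27 genes called with all samples became 22 with the scanner software's processed signals, a count within 1.5 times, of which 12 were among the 27. The count was 68 without background correction, 63 without a filter on dim probes, 3 with probes well above background in all 8 samples, 5 without the dye covariate and 13 when each probe was tested on its own. It was 521 with loess and Aquantile (428 higher, 93 lower), a setting that needs both channels of an array and so leaves only BYA1 and BYA2 in BYA, and 1024 with slide as a random block (490 higher, 534 lower). It was 0 with median scaling, with the 75th percentile, in the 8 samples, in the 12 samples of rats with spasms (1975 with an unadjusted p under 0.05 by limma), in the Cy3 samples (961), in the Cy5 samples (1644) and with array as a random block. The methods' t-test made 1182 calls at the methods' threshold, 0 after Benjamini-Hochberg adjustment and 1402 by the combined criterion, for which the dye effect was first removed. Leaving out 1 sample gave 0 (BYA2) to 265 (BYA3) calls, with 4 without BYA1, 25 without BYA4, 41 without BYP1, 1 without BYP2, 30 without BYP3 and 3 without BYP4. Leaving out both BYA1 and BYA2, chosen after seeing the data, gave 5 calls, 0 of them among the 27. Outside the median and 75th percentile scalings, all of the 27 genes that had a value kept their direction under the alternatives run on genes. Where each probe was tested on its own, direction by gene was not compared, and 1 of the 3 Mcf2l probes had the opposite sign (0.13).

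Without BYA3, the 265 genes became 173 with processed signals, 11 with median scaling (10 higher), 7 with the 75th percentile (7 higher), 418 without the filter on dim probes, 87 with probes well above background in all samples, 1 in the BYP and BYA samples alone, 29 in rats with spasms, 27 with array as a random block and 33 in the Cy3 samples, where BYA1 alone stood for BYA. The methods' t-test gave 1301 calls, 0 after adjustment and 1665 with the combined criterion. Leaving out a further sample gave 50 (BYA1) to 503 (BYA4) calls, with 94 without BYA2, 125 without BYP2, 151 without BYP3 and 142 without BYP4, and 165 without both BYA1 and BYA2, where BYA4 alone stood for BYA. A lone sample was assumed to vary like those of the other groups. Slide as a random block could not be fitted there, and the loess setting already leaves BYA3 out.

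Replicate numbers did not pair the samples (correlations of BYP with BYA deviations of -0.16, 0.0455, -0.0881 and -0.239). The replicate block gave 14 calls in place of 27, of which 13 were among the 27, and 216 in place of 265 without BYA3.

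Called genes that changed sign with median scaling were Trim30c (0.04), A_64_P129637 (0.11), Or51b6 (0.03), Prp15 (0.34) and Spopfm2l2 (0.12). With the 75th percentile they were RGD1564972 (0.30), A_64_P031781 (0.20), Mcf2l (0.06), Tmprss6 (0.17), Or4f14d (0.20), Pced1b (0.16), Dffb (0.28), Trim30c (0.42), A_64_P129637 (0.49), A_64_P041704 (0.27), A_64_P021805 (0.11), Krt81 (0.21), Or51b6 (0.42), Prp15 (0.72) and Spopfm2l2 (0.50). These genes are dim, and dim genes as a class shifted in the same direction under both scalings. The cause of the other changes in count was not tested. Dim signal limits what can be said of C5ar1, Sry and most genes lower in BYP.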
